A study of Mus musculus with 148 samples.

Results

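*Gspt2*, *Mageb16*, an interval of chromosome X listed as *Mir669m-2*, and *Cul4b* are 4 of the 258 genes that have an allelic ratio in iXist-ChrX cells after 6 days with or without Xist RNA induction. They were chosen by the measured difference in silencing between XistΔPID and WT cells in differentiating conditions. Silencing in XistΔPID was much weaker than in WT for *Mir669m-2*, *Gspt2* and *Mageb16*. For *Cul4b* it tended to be stronger by the change in ratio. That difference was about the size of the spread between libraries and did not hold by every measure given below. All values from that comparison are therefore a description and carry no test for these 4 genes. All 4 are also among the 464 genes with a ratio in the reciprocal line C7H8.

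Xist RNA coats the X chromosome from which it is transcribed and silences genes along it through separate parts of its sequence. The A-repeat binds SPEN, which brings in co-repressors and histone deacetylase activity. The B/C-repeat, also called the Polycomb interaction domain (PID), binds hnRNPK, which recruits a variant PRC1 complex that ubiquitinates histone H2A, and PRC2 with its methylation of histone H3 follows.

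iXist-ChrX cells are female mouse embryonic stem cells (mESCs) from a cross of 129S and Castaneus (Cast) mice, and in all of them a doxycycline (Dox) inducible TetOn promoter replaces the *Xist* promoter of the 129S X chromosome while the transactivator is expressed from the TIGRE locus. Chromatin-associated RNA was sequenced from WT cells, from XistΔA cells (A-repeat deleted) and from XistΔPID cells (B/C-repeat deleted), each with Dox or without (NoDox) for 6 days. Differentiating cultures, from which LIF was withdrawn, gave 3 libraries per line and induction state, and undifferentiated cultures gave 1. In C7H8, another WT line, kept in ES medium, in which the Cast X carries the inducible *Xist*, 2 NoDox and 2 Dox libraries come from 24 hours of induction. Each deletion was studied in these tables as 1 line, so an effect of the deletion and a property of the clone cannot be told apart. The unit is the fraction of allele-assigned reads of a gene that come from the inducible X, Xi/(Xi + Xa), and silencing z is the change of its mean from NoDox to Dox libraries, so that a more negative z is stronger silencing. The authors asked for 10 or more reads over SNPs per gene, but no read counts accompany the ratios. The depth of each ratio is therefore unknown, and precision is given as the spread between libraries. The study calls its replicates biological, the labels do not say whether they were grown separately, and the p-values below measure only the spread between these libraries.

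A guide listed by the study for making XistΔPID is shown because it marks where the edit was targeted. It matched 1 site on chromosome X of GRCm38.p6 (mm10), on the minus strand at chrX:103480607-103480626. This lies in exon 1 of 8 of *Xist* (chrX:103460373-103483233, minus strand), at bases 2608 to 2627 of the RNA. The guide is in lower case, and the capitals are the PAM that follows it in the genome.
XistΔPID guide: ttgaggttctataccagttcAGG

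The only reading of *Xist* in each library of the table is its allelic ratio, which does not check the deletion. In WT differentiating cells this ratio was 0.994, 0.986 and 0.983 without Dox, and in XistΔPID cells it was 0.995, 0.994 and 0.994. With Dox it came to 0.999 in each WT library after rounding, and to 1, 0.999 and 0.999 in XistΔPID, so the *Xist* reads of these lines came almost wholly from the inducible allele. In XistΔA it was lower without Dox, at 0.945, 0.738 and 0.950, with replicate 2 apart from the others, and 0.996, 0.999 and 0.991 with Dox.

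In the order of the difference in z (XistΔPID minus WT), *Mir669m-2*, *Gspt2* and *Mageb16* held the first 3 places of 258, with 0.460, 0.380 and 0.357, against a median over all genes of 0.145. The limma fit called 182 genes (70.5%) as more weakly silenced in XistΔPID at an adjusted p under 0.05, and it called 0 genes (0%) as more strongly silenced, also 0 at an unadjusted p under 0.05. The first genes outside the group were *Gm6938* (0.349), *Mcts1* (0.330) and *F8* (0.320). The step from *Mageb16* to *Gm6938* is small beside the spread between libraries (SD of the *Mageb16* difference 0.127).

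*Cul4b*, with a difference of -0.0937, was second from the other end and not the lowest. The lowest value belonged to *Slc25a5*, which encodes a mitochondrial ADP/ATP carrier, at -0.295, and *Eras* followed *Cul4b* at -0.0596. The *Slc25a5* value rested on 1 library, since its ratios in the XistΔPID NoDox libraries were 0.223, 0.953 and 0.241. Without that library, which was singled out after its values were seen, *Slc25a5* came to -0.0546 and *Cul4b* to -0.0577, behind *Prickle3* (-0.101), *Foxo4* (-0.0823) and *Tsix* (-0.0735), 3 genes likewise named after their values were seen. The place of *Cul4b* at the low end is thus close to that of several other genes. The SD of its difference was 0.104, or 0.0818 with the XistΔPID libraries paired by replicate number. By these SDs, which match no libraries between lines, the difference is of the size of the spread between libraries. In WT, XistΔA and XistΔPID alike, however, the *Cul4b* NoDox ratio was lowest in replicate 1 and highest in replicate 2. Whether equal numbers link libraries of different lines was not tested.

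The entry *Mir669m-2* is listed at chrX:77164403-77475936 on the minus strand. RefSeq for GRCm38.p6 places the microRNA gene of this name on chromosome 2, at chr2:10513434-10513531. Within the X interval RefSeq and GENCODE vM21 each place 3 pseudogenes and no other gene, and 1 of them, *Gm5398*, is on the minus strand. The ratio is therefore a reading of minus-strand reads over the interval, and it is not used here as a reading of the microRNA. The RPKM of the entry is listed as 0.

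For the *Mir669m-2* interval the WT NoDox ratios were 0.775, 0.807 and 0.875, and the WT Dox ratios 0.280, 0.190 and 0.180. The XistΔPID NoDox ratios were 0.595, 0.679 and 0.591, and the Dox ratios 0.385, 0.568 and 0.486. In WT cells the interval was strongly biased to the 129S allele before induction and clearly biased to Cast after it. In XistΔPID cells the Dox libraries were all lower than the NoDox libraries, though by less than in WT, and the NoDox libraries already lay below those of WT without overlap. The resulting z was -0.602 ± 0.0750 in WT and -0.142 ± 0.104 in XistΔPID (SD from the 3 NoDox and 3 Dox libraries).

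*Mageb16* belongs to the MAGE family, many of whose proteins bind RING ubiquitin ligases and are expressed mainly in the germline. It lies at chrX:79623231-79671435 on the minus strand, and its curated RefSeq transcripts have 3 or 4 exons. A pseudogene on the same strand, *Gm8792*, lies within its span. The WT NoDox ratios were 0.847, 0.783 and 0.819, and the WT Dox ratios 0.170, 0.396 and 0.235. In XistΔPID cells the ratios were 0.729, 0.703 and 0.704 without Dox and 0.542, 0.543 and 0.475 with Dox. The groups of the 2 lines did not overlap in either state, with XistΔPID lower than WT before induction and higher after it. The z was -0.549 ± 0.120 in WT and -0.192 ± 0.0415 in XistΔPID.

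*Gspt2* encodes a GTP-binding translation termination factor and is an intronless copy of *Gspt1*, with 1 exon at chrX:94636069-94638561 on the plus strand. The WT NoDox ratios were 0.508, 0.552 and 0.563, and the WT Dox ratios 0.0571, 0.0714 and 0.0227. In XistΔPID cells the ratios were 0.395, 0.444 and 0.378 without Dox and 0.355, 0.234 and 0.296 with Dox. *Gspt2* was almost silent on the WT inducible X after 6 days, whereas each XistΔPID Dox library kept a ratio above all WT Dox libraries. Its z was -0.491 ± 0.0384 in WT and -0.111 ± 0.0697 in XistΔPID.

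*Cul4b* encodes a cullin scaffold of RING ubiquitin ligases and lies at chrX:38531621-38576196 on the minus strand, with 23 exons in its curated RefSeq transcripts. The WT NoDox ratios were 0.365, 0.478 and 0.458, and the WT Dox ratios 0.111, 0.0652 and 0.139. In XistΔPID cells the ratios were 0.526, 0.649 and 0.556 without Dox and 0.108, 0.183 and 0.172 with Dox. The Dox libraries of both lines overlapped, and the mean Dox ratio was slightly higher in XistΔPID (0.154 ± 0.0407) than in WT (0.105 ± 0.0372; SD, n = 3 libraries each). Every XistΔPID NoDox library, in contrast, lay above every WT NoDox library. The z was -0.329 ± 0.0708 in WT and -0.423 ± 0.0760 in XistΔPID, 1 of the 12 most negative values of 258 in that line.

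**Figure D1:**
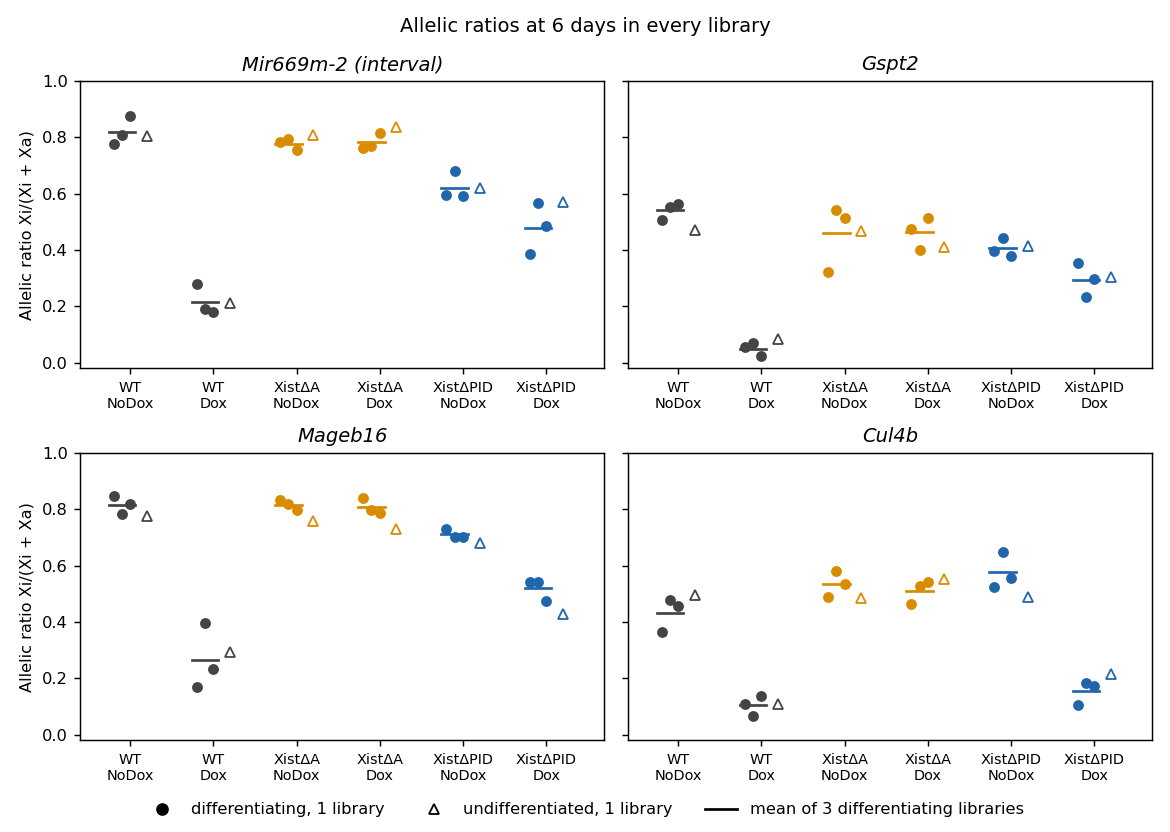
Allelic ratio Xi/(Xi + Xa) of the 4 genes (y axis, a fraction) in WT, XistΔA and XistΔPID cells at 6 days without and with Dox (x axis), with filled circles for single differentiating libraries, horizontal lines for means of 3 and open triangles for single undifferentiated libraries. The XistΔPID Dox values of *Mir669m-2*, *Gspt2* and *Mageb16* lie above those in WT, while those of *Cul4b* overlap with WT.

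The difference in z was split into its NoDox and its Dox part. With Dox, XistΔPID exceeded WT by 0.262 for *Mir669m-2*, 0.245 for *Gspt2* and 0.253 for *Mageb16*, which are places 11, 22 and 16 of 258, against a median of 0.140. All XistΔPID Dox libraries lay above all WT Dox libraries for these 3 genes, as they did for 219 of 258 genes (84.9%). Without Dox, XistΔPID was lower than WT by more than for most genes. The NoDox differences were -0.197 for *Mir669m-2*, the lowest of 258, -0.135 for *Gspt2* and -0.104 for *Mageb16*, with a median over all genes of -0.00121 and an SD over genes of 0.0437. NoDox libraries of XistΔPID lay wholly below those of WT for all 3 genes and for 25 of 258 genes in all (9.69%). Both the NoDox and the Dox ratios enter the difference that chose the genes. That choice favours such places and separations, which are therefore not a result apart from it. The NoDox part made up 42.9% of the difference in z for *Mir669m-2*, 35.6% for *Gspt2* and 29.2% for *Mageb16*.

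For *Cul4b* the NoDox part was larger than the difference in z itself. Its NoDox ratio was higher in XistΔPID by 0.143, place 3 of 258 from the top, and it was 1 of 14 genes (5.43%) whose XistΔPID NoDox libraries all exceeded those of WT. The choice of *Cul4b* for a low difference in z favours this as well. Its Dox ratio was higher in XistΔPID by 0.0490, so the sign of *Cul4b* turned when the Dox ratios alone were compared. It also turned when silencing was taken as the share of the NoDox ratio lost with Dox, which was 75.8% in WT and 73.3% in XistΔPID. On that scale the loss was 73.5% and 22.9% for *Mir669m-2*, 90.7% and 27.3% for *Gspt2*, and 67.3% and 27.0% for *Mageb16*, against medians over all genes of 81.5% and 51.0%. *Cul4b* was thus silenced about as far in XistΔPID as in WT by this measure, while the other 3 genes kept most of their starting ratio.

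**Figure D2:**
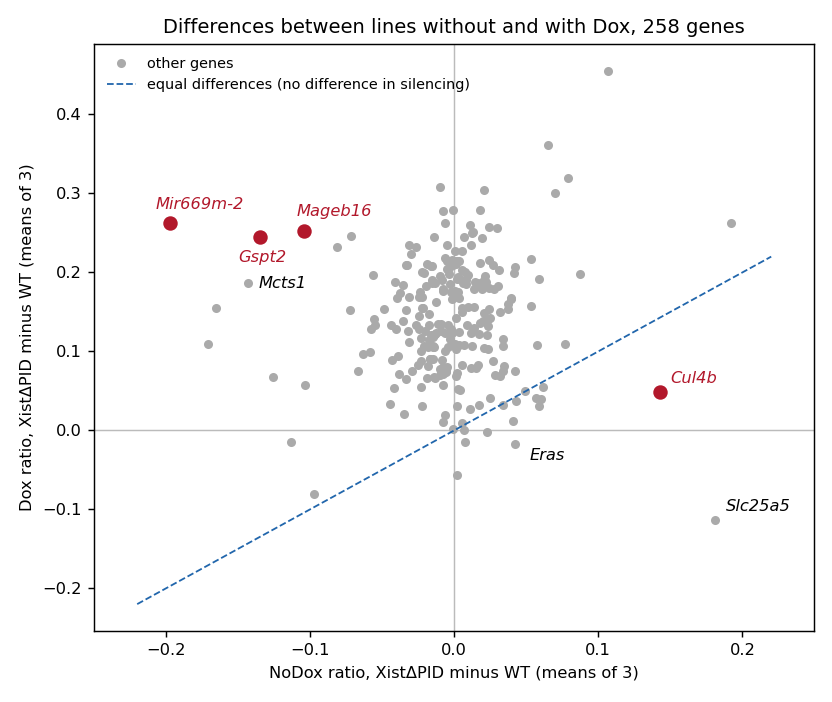
Difference in mean allelic ratio between XistΔPID and WT without Dox (x axis) and with Dox (y axis) for 258 genes in differentiating conditions, each mean over 3 libraries, with a dashed line where silencing z is equal in both lines and weaker silencing in XistΔPID above it. *Mir669m-2*, *Gspt2* and *Mageb16* combine NoDox differences of -0.197, -0.135 and -0.104 with Dox differences of 0.262, 0.245 and 0.253, whereas *Cul4b* (0.143 and 0.0490) lies below the line through its NoDox difference, as its Dox difference is also positive.

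The XistΔA libraries were not used to choose the genes and show their NoDox ratio in a further line. The NoDox ratios of XistΔA were 0.784, 0.795 and 0.755 for *Mir669m-2* and 0.832, 0.818 and 0.8 for *Mageb16*, overlapping with WT and above all XistΔPID values. For *Gspt2* they were 0.323, 0.543 and 0.515, a wide range that overlapped with both lines. For *Cul4b* they were 0.489, 0.581 and 0.536, all above the 3 WT values and overlapping with XistΔPID. The lower NoDox ratio of *Mir669m-2* and *Mageb16* was therefore seen in XistΔPID and not in XistΔA. For *Cul4b* the WT differentiating libraries stood lower than both deletion lines. The WT and XistΔPID values compared here did choose the genes. That choice favours a low WT NoDox ratio for *Cul4b* and a low XistΔPID one for the other genes. In undifferentiated cells, outside the choice, the *Cul4b* NoDox ratios were alike (WT 0.495, XistΔA 0.484, XistΔPID 0.489, 1 library each).

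With Dox, the XistΔA ratios stayed at the NoDox level. They were 0.762, 0.769 and 0.815 for *Mir669m-2*, 0.839, 0.799 and 0.787 for *Mageb16*, 0.474, 0.402 and 0.514 for *Gspt2* and 0.464, 0.528 and 0.542 for *Cul4b*, and Dox and NoDox libraries overlapped for each gene. The z in XistΔA was 0.00428 ± 0.0417 (SE) for *Mir669m-2*, 0.00303 ± 0.0481 for *Gspt2*, -0.00821 ± 0.0411 for *Mageb16* and -0.0240 ± 0.0379 for *Cul4b*. None of the 4 passed the limma test (adjusted p = 0.974 for each, unadjusted p from 0.537 to 0.951). It called 3 of 258 genes (1.16%), all lower with Dox, and 20 lower and 3 higher at an unadjusted p under 0.05. The count was 6 without replicate 1 of every differentiating group and 0 without replicate 3, where 10 genes passed limma's unadjusted p under 0.05. No silencing was thus detected in XistΔA at *Cul4b* or at the other 3 genes.

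The undifferentiated cultures, with 1 library per line and state and hence no test, were also outside the comparison that chose the genes. There *Mir669m-2* went from 0.804 to 0.212 with Dox in WT and from 0.619 to 0.571 in XistΔPID. *Gspt2* went from 0.470 to 0.0833 in WT and from 0.415 to 0.304 in XistΔPID, and *Mageb16* from 0.778 to 0.295 and from 0.682 to 0.428. The difference in z was 0.545 for *Mir669m-2*, place 2 of 258, 0.275 for *Gspt2*, place 30, and 0.229 for *Mageb16*, place 59. All 3 exceeded 0.2, as did 84 of 258 genes (32.6%), with a median of 0.166 over all genes. Only *Mir669m-2* kept a place near the top.

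The lower NoDox ratio in XistΔPID was also present in the undifferentiated libraries. The difference to WT was -0.185 for *Mir669m-2*, -0.0961 for *Mageb16* and -0.0546 for *Gspt2*, places 5, 13 and 24 of 258 from the low end. For *Cul4b* the undifferentiated NoDox ratios were alike, with 0.495 in WT, 0.484 in XistΔA and 0.489 in XistΔPID. With Dox, *Cul4b* was at 0.109 in WT and 0.214 in XistΔPID. Its difference in z was 0.111, on the side of weaker silencing in XistΔPID and opposite to the differentiating cultures. In XistΔA the undifferentiated Dox ratios of the 4 genes, 0.837 for *Mir669m-2*, 0.412 for *Gspt2*, 0.730 for *Mageb16* and 0.553 for *Cul4b*, again lay close to NoDox ratios of 0.807, 0.469, 0.758 and 0.484.

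In C7H8 cells the inducible X is the Cast chromosome, and a bias towards the 129S allele therefore appears as a low ratio. The *Mir669m-2* interval had ratios of 0.0658 and 0.0465 without Dox and 0.0235 and 0.0267 with Dox. *Mageb16* had 0.101 and 0.107 without Dox and 0.0248 and 0.0224 with Dox. Both thus favoured the 129S allele in the reciprocal line as in WT iXist-ChrX cells, and their mean NoDox ratios were places 4 and 12 of 464 from the low end. *Gspt2*, with 0.489 and 0.500 without Dox and 0.266 and 0.356 with Dox, and *Cul4b*, with 0.448 and 0.425 without Dox and 0.145 and 0.214 with Dox, started near balance.

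At 24 hours the fall in ratio passed the limma test for *Cul4b* (z = -0.257 ± 0.0304 SE, adjusted p = 0.00642), *Mageb16* (-0.0805 ± 0.0101, adjusted p = 0.00703) and *Gspt2* (-0.184 ± 0.0373, adjusted p = 0.0207), each lower in 2 of 2 Dox libraries. *Mir669m-2* did not pass it (-0.0311 ± 0.0125, adjusted p = 0.0994), although both Dox libraries lay below both NoDox libraries. The test called 362 of 464 genes (78.0%) in this direction, so 3 of 4 is near the share for all genes. The *Gspt2* call was lost without NoDox replicate 1 (adjusted p = 0.0799) or 2 (adjusted p = 0.0875), with adjusted p from 0.0149 to 0.0361 in its other alternatives. The *Mageb16* call was lost without NoDox replicate 2 (adjusted p = 0.0522, otherwise from 0.00286 to 0.0455). On the logit scale, which weighs changes at low ratios more, *Mir669m-2* passed (adjusted p = 0.0216; over its other alternatives the adjusted p ranged from 0.141 to 0.340). All 4 values come from WT Xist RNA and say nothing of the PID.

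The 4 genes lie far apart, apart from *Mir669m-2* and *Mageb16*, both between 77164403 and 79671435. Neighbours are listed genes whose lower coordinate lies within 1000000 bases of that of 1 of the 4. The interval *Mir669m-2* had 2 such neighbours, *Tbl1x* (difference in z 0.110, SE 0.0171, adjusted p = 7.69e-05) and *Prkx* (0.203, SE 0.0445, adjusted p = 0.00105). *Mageb16* had *Gm8787* (0.158) and *Gm7173* (0.0954), neither of which passed the test. *Gspt2* had 12 neighbours between 0.0778 (*Pcyt1b*) and 0.241 (*Zxda*) with a median of 0.121, of which 8 passed the test for weaker silencing and 0 for stronger, near the 70.5% called among all genes.

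The 8 neighbours of *Gspt2* that passed were *Pdk3*, *Zfx*, *Eif2s3x*, *Klhl15*, *Apoo*, *Maged1*, *Zxda* and *Amer1*. The 2 neighbours of *Cul4b* lay above 0, as did 244 of 258 genes. *Lamp2*, which encodes a lysosomal membrane protein, had a difference in z of 0.111 (SE 0.0168, adjusted p = 5.76e-05). *Mcts1*, whose first base lies 24462 bases from that of *Cul4b* on the other strand and which encodes a translation re-initiation factor, had 0.330 (SE 0.0977, adjusted p = 0.00798). Its WT ratios were 0.481, 0.417 and 0.500 without Dox and 0.154, 0.0769 and 0 with Dox, and in XistΔPID they were 0.375, 0.25 and 0.343 without and 0.231, 0.214 and 0.346 with Dox. Its XistΔPID NoDox values lay below those of WT here, whereas in the undifferentiated libraries its NoDox ratio was higher in XistΔPID by 0.180.

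**Figure D3:**
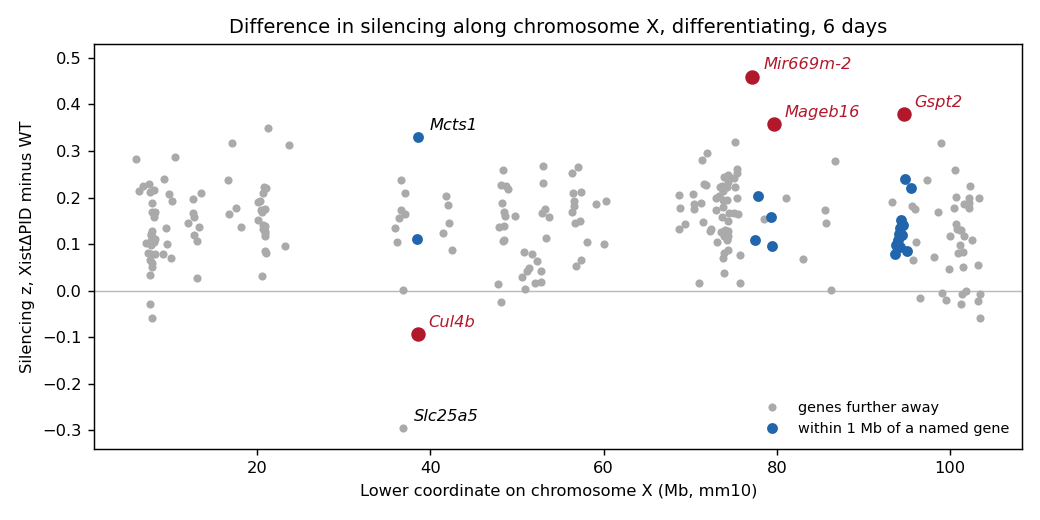
Difference in silencing z between XistΔPID and WT (y axis, difference of fractions, differentiating conditions) by lower coordinate on chromosome X (x axis, Mb, mm10) for 258 genes, with the 4 genes in red and listed genes within 1 Mb of one of them in blue. *Mcts1* at 0.330 and *Lamp2* at 0.111 are the blue points near *Cul4b* (-0.0937), and those near *Mir669m-2*, *Mageb16* and *Gspt2* lie between 0.0778 and 0.241.

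Over all 24 libraries, the gene whose ratios were closest to the *Mir669m-2* interval was *Mageb16*, with a root mean square difference of 0.0869, and the reverse held as well. *Utp14a* (0.118) and *C430049B03Rik* (0.123) came next for *Mir669m-2*, and *Utp14a* (0.121) and *Gm6938* (0.122) for *Mageb16*. Nearest to *Gspt2* were *Ids* (0.0598), *Zfp275* (0.0615) and *Thoc2* (0.0621), whose differences in z lay between 0.202 and 0.207, against 0.380 for *Gspt2*. Nearest to *Cul4b* were *Zmym3* (0.0511), *Mospd1* (0.0581) and *Lamp2* (0.0593), with differences in z of -0.00686, 0.113 and 0.111. These libraries include those that chose the genes.

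Genes of related function were taken from lists of symbols. Apart from *Mageb16*, 1 MAGE gene was listed, *Maged1*, with a difference in z of 0.142 (SE 0.0455, adjusted p = 0.0129), near the median of all genes. No microRNA symbol other than *Mir669m-2* was listed. Of 25 genes of the ubiquitin system, mostly ligases, their adaptors and deubiquitinases, 11 were listed, and of the 10 other than *Cul4b* 8 were called as more weakly silenced in XistΔPID and 0 as more strongly silenced, with a median difference of 0.125. They were *Uba1*, the ubiquitin-activating enzyme and the highest at 0.209 (SE 0.0336, adjusted p = 9.72e-05), *Brcc3*, *Xiap*, *Usp11*, *Klhl15*, *Otud5*, *Usp9x* and *Usp26*. *Pja1* was the lowest of the 10, at -0.0211 with an SE of 0.161.

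Of 21 genes on a list for translation and the ribosome, which also holds *Nkap*, known as a transcription and splicing factor, 13 were listed, and all 12 other than *Gspt2* were called as more weakly silenced, with a median of 0.176. They were *Mcts1*, the highest, *Rbm3*, *Nkap*, *Fmr1*, *Utp14a*, *Rps4x*, *Las1l*, *Ftsj1*, *Dkc1*, *Ddx3x*, *Rpl10* and *Eif2s3x*, the lowest at 0.0945 (SE 0.0274, adjusted p = 0.00696). *Fmr1*, an RNA-binding regulator of translation, had 0.205 (SE 0.0155, adjusted p = 1.79e-07). Beside the 70.5% called among all 258 genes, these counts describe the lists and are not a test of them. In C7H8 cells at 24 hours 9 of 11 genes of the ubiquitin list and 7 of 13 of the translation list, *Cul4b* and *Gspt2* among them, were called as lower with Dox, beside 78.0% of all genes of that table.

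In the deposited RPKM, *Cul4b* stood at 119, place 15 of 258, *Gspt2* at 23.3 and *Mageb16* at 2.57, with a median of 17.2 over all genes. The *Mir669m-2* interval is listed at 0. That value is not read as its expression, since the interval has an allelic ratio, and hence reads, in every library. In WT differentiating cells *Mir669m-2*, *Mageb16* and *Gspt2* were among the 30 most strongly silenced genes by z, at places 5, 10 and 30, while *Cul4b* was at place 211. The z in WT is a term of the difference that chose the genes, so the choice favours these places. A gene with a high NoDox ratio can fall further, and both *Mir669m-2* and *Mageb16* started above 0.8 in the mean. By the share of the NoDox ratio lost in WT, *Mir669m-2* (73.5%) and *Mageb16* (67.3%) lay below the median of 81.5%. *Gspt2* (90.7%) lay above it.

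RefSeq promoter sequence for GRCm38.p6 was matched by symbol for 2 of the 4 genes, *Mageb16* and *Cul4b*, and for 204 of the 258 listed genes. The 250 bases before the start are shown for both, since these genes stand at opposite ends of the order, with each CG dinucleotide, which reads the same on both strands, in capitals. The *Cul4b* promoter (chrX:38576197-38576446, minus strand) holds 9 CG and is 50.8% G or C. The *Mageb16* promoter (chrX:79671436-79671685, minus strand) holds 5 CG and is 47.6% G or C. Both lie below the medians of 12 CG and 57.2% over the 204 promoters, of which 198 (97.1%) hold at least 1 CG. The sequence is that of the reference strain and not of the 129S or Cast allele.
Cul4b promoter: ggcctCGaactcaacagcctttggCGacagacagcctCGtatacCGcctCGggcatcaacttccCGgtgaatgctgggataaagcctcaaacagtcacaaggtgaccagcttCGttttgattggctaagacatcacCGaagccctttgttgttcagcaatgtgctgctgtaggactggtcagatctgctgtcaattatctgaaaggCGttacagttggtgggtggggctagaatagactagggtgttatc
Mageb16 promoter: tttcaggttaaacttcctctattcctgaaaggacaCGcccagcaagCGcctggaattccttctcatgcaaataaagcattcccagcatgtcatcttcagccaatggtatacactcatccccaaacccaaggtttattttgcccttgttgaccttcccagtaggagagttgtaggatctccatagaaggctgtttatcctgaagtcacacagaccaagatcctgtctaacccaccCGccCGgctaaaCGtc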

How the data were processed

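ChrRNA-seq libraries of iXist-ChrX lines (24 at 6 days) and of C7H8 (4 at 24 hours) were analysed here, with conditions and replicate numbers taken from the sample labels. The growth protocol in the labels names 24 hours for all samples, and the 6 days of the titles were used. Other tables and libraries of the series were not used here.

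Per the labels and the study's methods, rRNA reads were filtered out with bowtie2 by the authors, who then aligned the rest to N-masked mm10 with STAR, separated the alleles with SNPsplit and counted by strand with featureCounts. The deposited fraction is the allelic ratio of genes that had 10 or more reads over SNPs. The deposited RPKM is 1 value per gene whose library is not named. Starts were read as counting from 0 and are given counting from 1.

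Ratios were fitted with limma 3.58.1 in R 4.3.3 (lmFit, eBayes), with 1 coefficient for each of 12 line, culture and induction groups in the 6-day table and a separate fit of the C7H8 table, and Benjamini-Hochberg adjustment over all genes of a table. No 2 libraries held identical values. SDs of z and of differences are square roots of summed group variances. Other steps used Python 3.11.15, numpy 2.4.6, pandas 2.3.3 and matplotlib 3.10.9. Alternatives were the logit scale, a replicate block, differentiating libraries alone, a NoDox ratio between 0.2 and 0.8, leaving out replicates, Dox ratios alone and the share of the NoDox ratio lost.

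The members, lists and rules for naming genes were chosen with earlier results of these data known. *Prickle3*, *Foxo4* and *Tsix* were named outside these rules, after their values were seen. Named are the 4 genes, the 3 that follow at the weakly silenced end, the 3 lowest, the 3 closest to each gene by root mean square difference, listed genes with a lower coordinate within 1000000 bases, and from each list those called and the highest and lowest. Of the marker symbols looked up in the 6-day table, *Nr0b1* of embryonic stem cells, *Timp1*, *Srpx* and *Fhl1* of feeder fibroblasts, and *L1cam* and *Syn1* of neurons are listed, while *Rhox5*, *Bgn*, *Col4a5* and *Dcx* are not. With no expression per library, the share of other cell types in the ratios was not tested.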

Additional observations from a re-analysis of the deposited data

Results flagged for a closer look

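The difference in silencing (XistΔPID minus WT) had opposite signs in the 2 cultures for 7 of 54 named genes and 17 of all 258. The naming rule takes genes from both ends of the order. *Foxo4* and *Tsix*, among the 7, were named outside it, after their values were seen. For 3 of the 7 the differentiating Dox libraries of the lines, each taken from its line's mean NoDox ratio, did not overlap. This leaves out the NoDox spread (WT SD 0.111 for *Eras*), and the Dox ratios themselves overlapped between lines for *Cul4b* and *Eras*. The 3 were *Cul4b*, with -0.0937 in differentiating and 0.111 in undifferentiated cells, *Eras*, with -0.0596 and 0.139, and *Mcts1*, the close neighbour of *Cul4b*, with 0.330 and -0.150. All 3 were named for standing near an end of the differentiating order. That choice favours such a separation, which therefore does not set them apart from other genes. The libraries overlapped for *Pja1* (-0.0211 and 0.344), *Zmym3* (-0.00686 and 0.163), *Foxo4* (-0.0281 and 0.0805) and *Tsix* (-0.0586 and 0.0606). Each undifferentiated value rests on 1 library per line and state, and the difference between cultures was not tested.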

How the results depend on the processing

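The differences in z of the 4 genes kept their sign when any replicate was left out of every differentiating group, and *Cul4b* kept it without the XistΔPID NoDox library that stands apart for *Slc25a5*, an alternative chosen after seeing the data. For *Cul4b* the values ranged from -0.114 to -0.0577 in these settings, with -0.0587 without replicate 1. On Dox ratios alone the difference was 0.262 for *Mir669m-2*, 0.245 for *Gspt2* and 0.0490 for *Cul4b*, whose sign turned. As a share of the NoDox ratio lost it was 0.633 for *Gspt2* and 0.0251 for *Cul4b*, whose sign turned here too. By construction the first leaves out the NoDox ratios, in which the lines differ, and the second divides by them.

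In XistΔA, z of the 4 genes stayed on the same side of the threshold in every alternative run. Its sign changed without a replicate for *Mir669m-2* (-0.0236 to 0.0192) and *Gspt2* (-0.0711 to 0.0751), values within their spread. The count of genes called in XistΔA ranged from 0 to 6 when a replicate was left out. The cause was not tested.

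In C7H8, leaving out 1 library gave z from -0.229 to -0.139 for *Gspt2*, from -0.0833 to -0.0777 for *Mageb16*, from -0.291 to -0.222 for *Cul4b* and from -0.0407 to -0.0214 for *Mir669m-2*, with calls of *Gspt2* and *Mageb16* lost as given above. The lone library of a state is then assumed to vary like the other. On the logit scale *Mir669m-2* passed at -0.825, and the cause was not tested. The NoDox filter removed *Mir669m-2* and *Mageb16* from C7H8.

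With a replicate block the counts were 2 genes in XistΔA, 193 for weaker and 0 for stronger silencing in XistΔPID, and 338 in C7H8, against 3, 182, 0 and 364 without it, and no call of the 4 genes in XistΔA or C7H8 changed. Same-numbered libraries correlated between 0.0145 and 0.168 in WT, -0.0279 and 0.408 in XistΔA, 0.112 and 0.359 in XistΔPID, and at -0.00900 in C7H8, and were closest to each other throughout in XistΔPID but not in the other lines, so the numbers were not taken as pairs. Taken as pairs in XistΔPID, the SD of z was 0.0587 for *Mir669m-2*, 0.0887 for *Gspt2*, 0.0345 for *Mageb16* and 0.0410 for *Cul4b*, against 0.104, 0.0697, 0.0415 and 0.0760.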
